A study of Mus musculus with 6 samples.

Results

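The mitochondrial ribosomal protein genes were taken as every row of the deposited count table whose gene symbol begins with Mrpl or Mrps followed by a digit. This gave 77 of the 17459 rows, and all 77 had enough counts to be tested among 13490 genes. Of these, 50 encode proteins of the large subunit and 26 proteins of the small subunit. The remaining one, Mrps36, carries the name but encodes a subunit of the 2-oxoglutarate dehydrogenase complex of the citric acid cycle.

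Mitochondria build the few respiratory chain proteins encoded in their own DNA on ribosomes of their own. The RNA of these ribosomes comes from mitochondrial DNA, whereas all of their proteins are encoded in the nucleus, made in the cytosol and imported. Some of the proteins have counterparts in bacterial ribosomes and others are peculiar to mitochondria, and the subunits need dedicated assembly factors, GTPases and methyltransferases before they join.

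RNA was sequenced from microglia, the resident macrophages of the brain, of adult male C57BL/6J mice labelled as 8 weeks old. The cKO mice carried Mir137 alleles flanked by loxP sites together with Tmem119-CreERT2, a tamoxifen-activated Cre under control of Tmem119, a gene of microglia. The cWT mice had Tmem119-CreERT2 with unaltered Mir137 alleles, so both genotypes had the Cre allele. Mice of both genotypes were injected with tamoxifen on 7 days at 7 to 8 weeks of age. Each genotype had 3 libraries, and 4 mice are named for the isolation without a statement of how they fall into libraries, so p-values here reflect no more than the spread among these libraries, part of which may be technical. The comparison asks which transcripts differ once miR-137 is removed from microglia.

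Total counts were 12068698 to 15212806 in cKO libraries and 16503817 to 17482042 in cWT libraries. In the authors' deposited table the base mean of Mir137 was 0. A mean of 0 over libraries of both genotypes leaves no counts in cWT libraries either, so it does not show the deletion. Its level in single libraries was not analysed here, and the deletion was not checked. All 8 microglial markers were detected, with a summed level of 39935 to 46121 CPM (counts relative to library size after TMM scaling) in cKO and 34359 to 36541 CPM in cWT libraries, with 4 called higher and 3 lower at an edgeR adjusted p under 0.05. Of the neutrophil markers, 4 of 5 tested were higher, with sums of 10955 to 15532 CPM in cKO and 3707 to 4342 CPM in cWT libraries. Endothelial markers (2 of 6 higher, 4 lower) summed to 1400 to 1680 CPM in cKO and 988 to 1183 CPM in cWT libraries, and oligodendrocyte markers (4 of 6 higher, 1 lower) to 289 to 421 CPM in cKO and 268 to 282 CPM in cWT libraries. Summed levels overlapped between genotypes for the markers of astrocytes, erythroid cells, border macrophages and neurons. They were 349 to 606 CPM in cKO and 373 to 386 CPM in cWT libraries for astrocytes (1 of 6 higher, 0 lower), and 102 to 212 CPM in cKO and 113 to 163 CPM in cWT libraries for erythroid cells (0 of 5 higher, 1 lower). They were 509 to 627 CPM in cKO and 581 to 739 CPM in cWT libraries for border macrophages (3 of 5 higher, 1 lower), and 3.12 to 7.70 CPM in cKO and 2.98 to 4.04 CPM in cWT libraries for neurons (1 of 2 tested higher, 0 lower). Beside these marker calls, 35.6% of all genes tested were called higher and 36.5% lower. The part of these marker differences in the results was not tested. No listed marker in the table was at 0 in all libraries. In bulk RNA, fewer cells of a type and less RNA per cell cannot be told apart.

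The mitochondrial ribosomal protein genes were higher in cKO microglia almost without exception. Together they took 0.338% ± 0.00769 of all counts in cKO libraries and 0.152% ± 0.00564 in cWT libraries (SD, n = 3 each). In CPM, their summed level was 3874 ± 176 in cKO and 1325 ± 47.5 in cWT libraries, a ratio of 2.92. The quasi-likelihood test of edgeR called 76 of the 77 genes higher at a Benjamini-Hochberg adjusted p under 0.05, where 35.6% of all genes tested were called higher. It called 0 lower, where 36.5% of all genes were called lower, and the single gene not called was Mrps2. An increase of at least 2-fold was called for 63 genes (background 19%). For 76 genes every cKO library lay above every cWT library (background 36.7%). The median log2 fold change, cKO over cWT, was 1.53 with an interquartile range of 1.28 to 1.78, beside -0.02 for all genes tested. Standard errors of the single genes ran from 0.096 to 0.16.

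**Figure D1:**
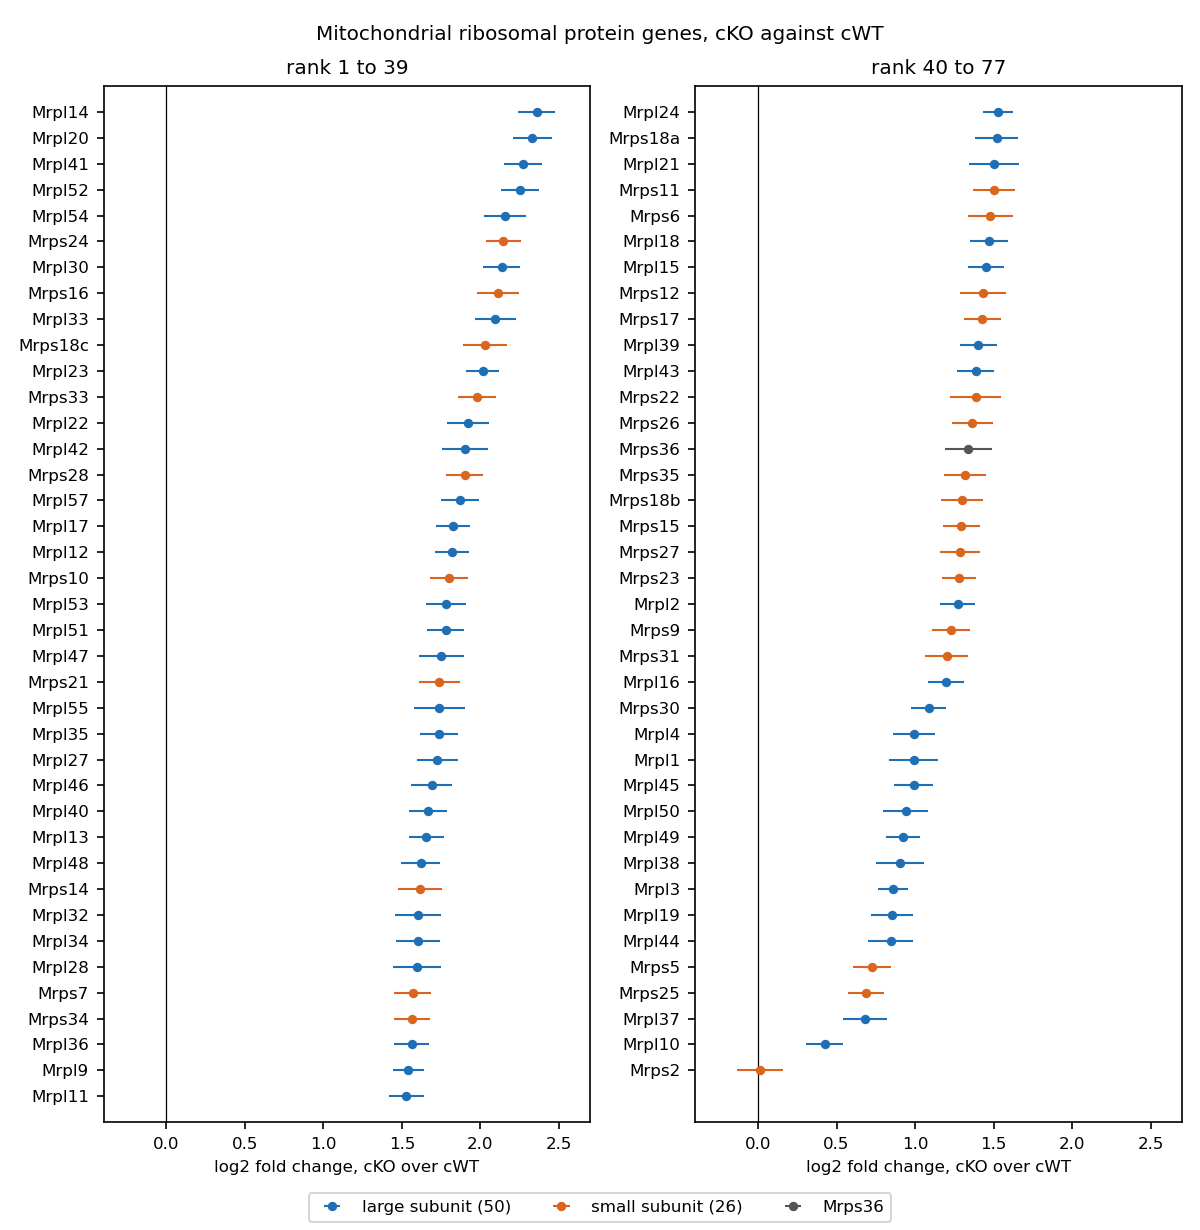
Log2 fold change of each of the 77 genes, cKO over cWT, in rank order with the largest at the top left; points are edgeR estimates and bars are ± 1 standard error. Values run from 2.36 for Mrpl14 to 0.01 for Mrps2, whose bar crosses 0, and large and small subunit genes are mixed along the ranking.

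The ranked plot of fold changes shows both subunits along the whole range. All 50 large subunit genes rose, with a median log2 fold change of 1.60, and 25 of 26 small subunit genes rose, with a median of 1.43. Within the large subunit, the 29 genes with a bacterial counterpart had a median of 1.60 and the 20 mitochondria-specific genes one of 1.64. Within the small subunit, the 16 genes with a bacterial counterpart had a median of 1.53 and the 9 mitochondria-specific genes one of 1.32. These medians were not tested against each other. Summed CPM of the large subunit genes over that of the small subunit genes was 2.22, 2.25 and 2.35 in cKO libraries and 2.05, 2.16 and 2.19 in cWT libraries. The cKO ratios all lay above the cWT ratios, by 0.14 on average.

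The largest increase belonged to Mrpl14, whose protein lies on the face of the large subunit that meets the small one and is the docking site of the assembly factor Malsu1. Mrpl14 (chr17:45686322-45698495, plus strand, GRCm38) had 62.2, 62.5 and 68.2 CPM in cKO libraries and 13.5, 11.2 and 13.0 CPM in cWT libraries. Its log2 fold change was 2.36 (standard error 0.12, edgeR Benjamini-Hochberg adjusted p = 1.176e-11), or 5.12-fold. Mrpl20, counterpart of a bacterial protein that binds ribosomal RNA early in assembly, had 142, 123 and 119 CPM in cKO libraries and 30.7, 22.2 and 23.4 CPM in cWT libraries. Its log2 fold change was 2.33 (standard error 0.12, edgeR adjusted p = 2.348e-11), and the groups were far apart. Mrps24, counterpart of bacterial S3 at the channel where messenger RNA enters, had 88.8, 72.4 and 74.8 CPM in cKO libraries and 18.7, 17.97 and 16.6 CPM in cWT libraries. Its log2 fold change of 2.15 (standard error 0.11, edgeR adjusted p = 2.011e-11) was the largest of the small subunit. The mitochondria-specific large subunit genes Mrpl41, Mrpl52 and Mrpl54 complete the top 6, with log2 fold changes of 2.27, 2.25 and 2.15, each without overlap between the genotypes.

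At the other end, Mrps2, counterpart of bacterial S2 on the back of the small subunit, did not differ beyond the spread between libraries. Mrps2 (chr2:28468066-28471178, plus strand) had 22.9, 15.6 and 23.9 CPM in cKO libraries and 20.1, 20.0 and 21.8 CPM in cWT libraries. The cKO libraries lay on both sides of the cWT libraries, and the log2 fold change was 0.01 (standard error 0.15, edgeR adjusted p = 0.945). Mrpl10 encodes the stalk base to which the copies of Mrpl12 attach, and the stalk recruits translation factors. Mrpl10 had 33.5, 33.1 and 39.9 CPM in cKO libraries and 24.1, 28.3 and 27.1 CPM in cWT libraries, a log2 fold change of 0.42 (standard error 0.12, edgeR adjusted p = 0.00377). Mrpl12, its partner in the stalk, had 96.2, 87.7 and 106 CPM in cKO libraries and 28.0, 29.4 and 24.7 CPM in cWT libraries, a log2 fold change of 1.82 (standard error 0.11, edgeR adjusted p = 7.547e-11). The genotypes did not overlap for either gene, although the increases of these partners differed in size. That difference was not tested.

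The other small increases were those of Mrpl37 (0.68, standard error 0.14), Mrps25 (0.69, standard error 0.11), Mrps5 (0.73, standard error 0.12) and Mrpl44 (0.84, standard error 0.14) on the log2 scale. Mrps5 is the counterpart of bacterial S5 at the messenger RNA entry, Mrpl44 has a ribonuclease III fold, and Mrpl37 and Mrps25 are mitochondria-specific. For Mrps25, CPM were 49.2, 46.0 and 44.0 in cKO libraries and 31.1, 25.2 and 30.0 in cWT libraries. The edgeR Benjamini-Hochberg adjusted p of these 4 genes was at most 2.962e-04 (Mrpl37), and the groups did not overlap for any of them.

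**Figure D2:**
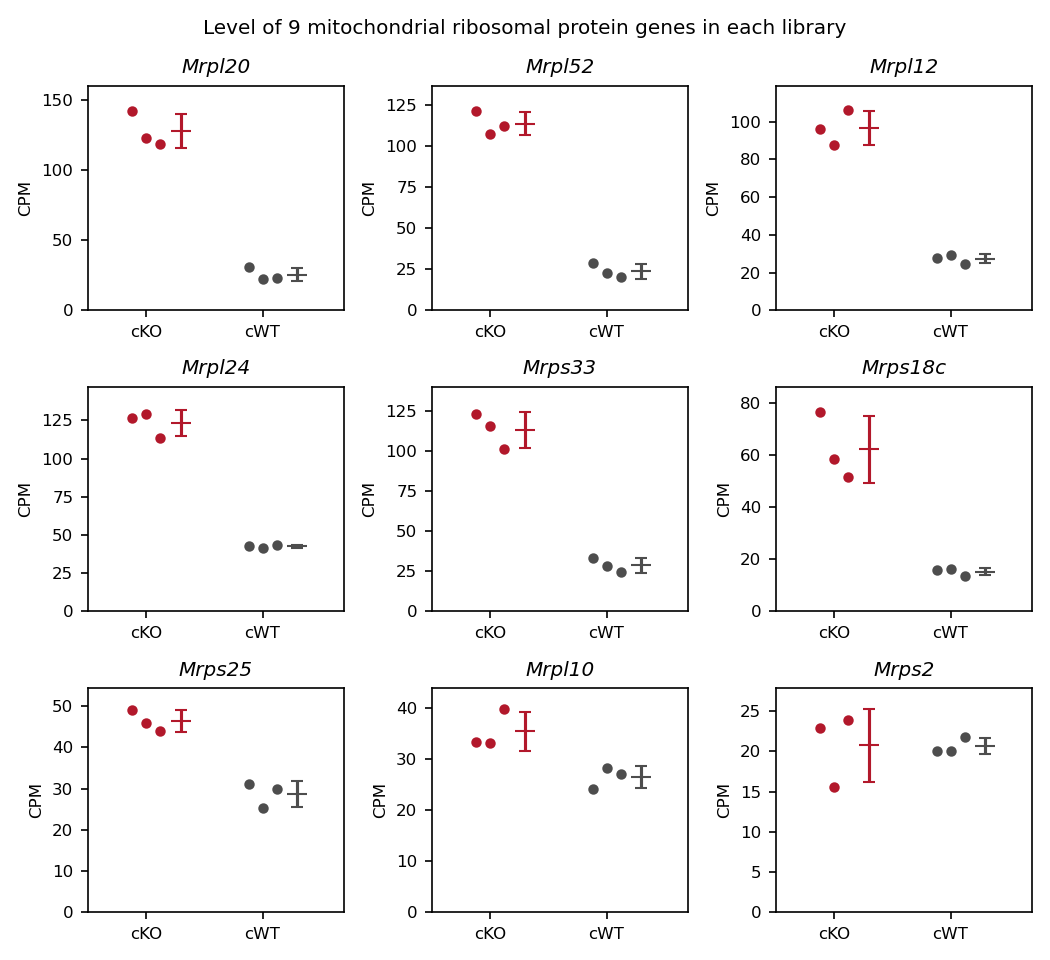
Level in CPM of 9 mitochondrial ribosomal protein genes in each of the 3 cKO (red) and 3 cWT (grey) libraries; the cross and bar beside the points are the mean ± SD. The cKO points lie above the cWT points for 8 of the genes, widely for Mrpl20 and narrowly for Mrpl10, and overlap them for Mrps2.

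The plot of levels by library also holds genes of high CPM. Ranked by the mean over the 6 libraries, to which the cKO libraries add most, these were Mrpl24, Mrpl20, Mrps33, Mrpl52, Mrpl12 and Mrpl48. Within cWT alone the order differed, with Mrpl24 at 42.7 CPM, Mrpl3 at 33.9, Mrpl48 at 29.6 and Mrpl43 at 29.1 on top, and Mrpl20 at 25.4 and Mrpl52 at 23.9 below them. Mrpl24, counterpart of a bacterial protein near the exit of the peptide tunnel, averaged 123 ± 8.44 CPM in cKO and 42.7 ± 1.01 CPM in cWT libraries (SD, n = 3 each). Mrps33, a mitochondria-specific small subunit gene, averaged 113 ± 11.2 CPM in cKO and 28.7 ± 4.58 CPM in cWT libraries. Mrpl48, a mitochondria-specific large subunit gene, averaged 91.1 ± 11.1 CPM in cKO and 29.6 ± 4.96 CPM in cWT libraries. The log2 fold changes were 1.53 for Mrpl24, 1.98 for Mrps33 and 1.62 for Mrpl48, all called higher.

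Levels were compared between genes per kilobase of coding sequence. On that scale the highest in cKO were Mrpl33 at 376 and Mrps33 at 357 CPM per kb, with 88.0 for Mrpl33 and 90.4 for Mrps33 in cWT. Mrpl52 followed with 314 in cKO and 65.8 in cWT, and Mrpl20 with 286 in cKO and 56.9 in cWT. Per kilobase of transcript, the 6 highest were Mrpl52, Mrpl20, Mrpl33, Mrpl23, Mrps21 and Mrpl24, from 165 down to 67.6 CPM per kb over all libraries. Mrpl23, whose bacterial counterpart borders the tunnel exit, had a log2 fold change of 2.01, Mrpl33 one of 2.09 and Mrps21 one of 1.74, all called higher. Where the test allowed for transcript length and GC content through offsets, explained with the lengths further on, Mrpl23 stood at 0.63 and was called, while Mrpl33 at 0.18 and Mrps21 at -0.095 were not. With offsets for coding length Mrpl33 was called at 0.40, and Mrps21 at 0.25 was not. The SD over the 77 genes of the log2 level per kb of coding sequence was 1.11, 1.09 and 1.03 in cKO libraries and 0.854, 0.809 and 0.806 in cWT libraries. The levels on this scale were thus more unequal in each cKO library than in any cWT library, and the difference of the means was 0.25. Fold changes of the 77 fell with coding length (Spearman correlation -0.64), the length this scale divides by. The SD was not computed with offsets, and its relation to that trend was not tested.

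The S18 proteins are a family of 3 paralogs in mitochondria, with Mrps18b and Mrps18c in the small subunit and Mrps18a in the large one. Mrps18c had 76.5, 58.4 and 51.6 CPM in cKO libraries and 15.9, 16.1 and 13.7 CPM in cWT libraries, a log2 fold change of 2.03 (standard error 0.14, edgeR adjusted p = 4.922e-10). Mrps18a averaged 37.5 ± 4.87 CPM in cKO and 13.1 ± 1.93 CPM in cWT libraries, with a log2 fold change of 1.52 (standard error 0.14). Mrps18b averaged 27.8 ± 1.31 CPM in cKO and 11.3 ± 1.56 CPM in cWT libraries, with a log2 fold change of 1.30 (standard error 0.13). All 3 rose, and none of their groups overlapped. None of the 3 was called with transcript length and GC offsets, at 0.22 for Mrps18c, 0.20 for Mrps18a and 0.09 for Mrps18b, whereas with coding length offsets all 3 were, at 0.91, 0.67 and 0.70 in that order. Mrps12, counterpart of bacterial S12 at the decoding centre, averaged 22.6 ± 0.571 CPM in cKO and 8.36 ± 1.46 CPM in cWT libraries, a log2 fold change of 1.43 (standard error 0.15, edgeR adjusted p = 9.337e-08), which was 0.07 with transcript length and GC offsets and then not called. Mrps36, the dehydrogenase subunit, averaged 19.0 ± 1.46 CPM in cKO and 7.51 ± 0.646 CPM in cWT libraries, a log2 fold change of 1.34 (standard error 0.15, edgeR adjusted p = 2.187e-07).

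Fold changes over the whole transcriptome followed transcript length, and the mitochondrial ribosomal protein genes are short. Their annotated transcripts had a median of 1226 bases and their coding sequences one of 576 bases, beside 2842 and 1380 bases for all genes tested. Across genes, which are not independent replicates, the Spearman correlation of log2 fold change with transcript length was -0.71 for 13402 genes and -0.51 for the 77. With coding length it was -0.65 for 13044 genes and -0.64 for the 77. All genes were split by transcript length into 10 equal groups. In the shortest group (174 to 1155 bases) the median for all genes was 1.57, and that for the 34 mitochondrial ribosomal protein genes in it was 1.74. In the next group (1156 to 1605 bases) it was 1.01 for all genes and 1.28 for 15 mitochondrial ribosomal protein genes. In the groups between 2842 and 4717 bases, the all-gene medians were -0.14, -0.37 and -0.65, while the medians of the 5, 4 and 6 mitochondrial ribosomal protein genes there were 1.60, 1.74 and 1.34. Several of these long annotated transcripts carry a short coding sequence, and which transcript the cells used was not tested.

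**Figure D3:**
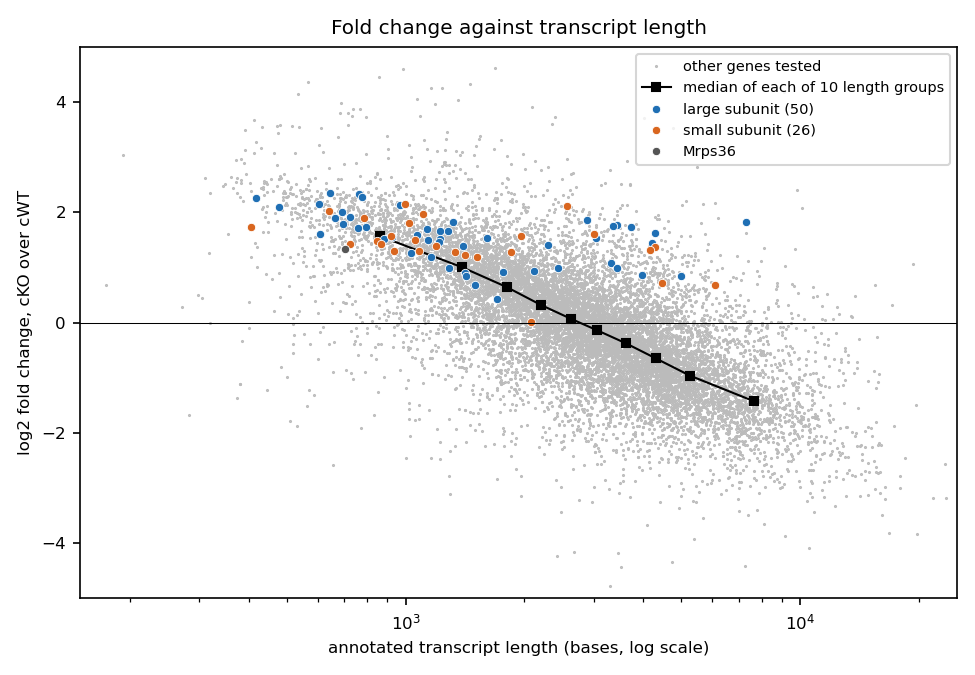
Log2 fold change, cKO over cWT, against annotated transcript length in bases on a log scale, for the 77 mitochondrial ribosomal protein genes (coloured) and the other genes tested (grey); squares are the medians of 10 equal groups of genes by length, and 14 genes lie outside the axes. The squares descend from 1.57 to -1.42, and every coloured point from 2842 bases upward lies above them.

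The fit was repeated with offsets for the trend of all genes with transcript length and GC content in each library, which left a Spearman correlation of -0.061 with transcript length across all genes. The edgeR test then called 51 of the 77 higher (background 30.7%) and 2 lower (background 26.8%), with a median log2 fold change of 0.49 beside 0.03 for all genes. The 2 called lower were Mrps36 at -0.41 (edgeR adjusted p = 0.0245) and Mrps2 at -0.39 (edgeR adjusted p = 0.0162). By subunit, 35 of 50 large subunit genes stayed higher with 0 called lower, while for the small subunit these numbers were 16 of 26 and 1. With offsets for coding length instead, chosen after the annotated lengths were seen, 65 were called higher (background 34.4%) and 2 lower (background 29.1%), with a median of 0.72 beside 0.07 for all genes. The 2 lower ones were Mrps2 at -0.45 (edgeR adjusted p = 0.0128) and Mrps25 at -0.28 (edgeR adjusted p = 0.0357). The same 48 genes were called higher with both kinds of offsets, and 9 with neither. The share of all genes called higher with both was not computed. For Mrpl14 the log2 fold change was 0.94 with transcript length and GC offsets and 1.25 with coding length offsets, for Mrpl20 0.78 and 1.25, and for Mrps24 0.92 and 1.16. For Mrpl10 it was -0.20 and -0.14, neither called.

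The values of genes annotated with long transcripts depended on which length was used. The 23 genes with at least 2000 annotated bases, a split chosen after the lengths were seen, had a median log2 fold change of 1.40 without offsets, 1.65 with transcript length and GC offsets and 0.68 with coding length offsets. The 54 shorter ones had a median of 1.56 without offsets, 0.28 with transcript length and GC offsets and 0.74 with coding length offsets. Median coding length was 633 bases in the longer group and 549 bases in the shorter, a smaller gap than in transcript length. Mrps25, with 6073 annotated bases, stood at 1.68 with the transcript length and GC offsets and at -0.28 with the coding length offsets.

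**Figure D4:**
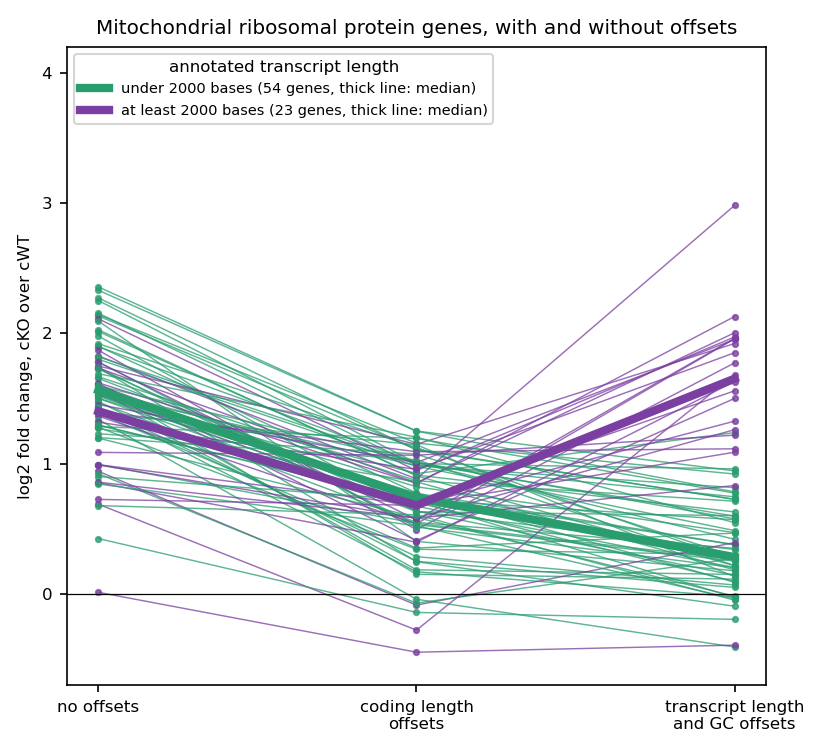
Log2 fold change, cKO over cWT, of each of the 77 genes without offsets, with coding length offsets and with transcript length and GC offsets; each thin line is a gene and thick lines are medians of genes with annotated transcripts under 2000 bases (green) and of at least 2000 bases (purple). Both medians fall to about the same level with coding length offsets, at 0.74 and 0.68, and part to 0.28 and 1.65 with transcript length and GC offsets.

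The plot of offsets shows that most genes stayed above 0 in either fit. Other groups of short housekeeping genes moved in the same direction. Of the cytosolic ribosomal protein genes, 83 of 83 tested were higher (background 35.6%), with a median log2 fold change of 2.16. With transcript length and GC offsets 75 remained called higher (background 30.7%), at a median of 0.64. Of the Nduf genes of respiratory complex I, 36 of 36 were higher (background 35.6%) with a median of 2.07. With those offsets 30 were called higher (background 30.7%) at a median of 0.67. With coding length offsets 80 cytosolic ribosomal protein genes were called higher (background 34.4%) at a median of 1.16. The same offsets left 36 Nduf genes called higher (background 34.4%) at a median of 1.01. Median transcript lengths were 775 bases for the cytosolic ribosomal protein genes and 812 bases for the Nduf genes.

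Subunits of the mitochondrial ribosome without an Mrp name were looked at next. Of 6 such genes, 5 were higher (background 35.6%) and 0 lower, with a median log2 fold change of 1.81. After transcript length and GC offsets 5 were again called higher (background 30.7%) and 0 lower, at a median of 1.19. Chchd1 stood lowest of those called at 0.33. Aurkaip1, a small subunit protein, averaged 141 ± 2.83 CPM in cKO and 35.1 ± 1.89 CPM in cWT libraries, a log2 fold change of 2.01 (standard error 0.095, edgeR adjusted p = 7.235e-12). Chchd1, another small subunit protein, had a log2 fold change of 2.12, Ict1, a large subunit protein with peptidyl-tRNA hydrolase activity, one of 1.98, and Gadd45gip1, at the tunnel exit of the large subunit, one of 1.64. The GTP-binding small subunit protein Dap3 stood at 0.58 (standard error 0.11). Ptcd3, a pentatricopeptide repeat protein of the small subunit, was not called, with 32.2 ± 2.80 CPM in cKO and 29.9 ± 1.44 CPM in cWT libraries and a log2 fold change of 0.11 (standard error 0.11, edgeR adjusted p = 0.414). With coding length offsets Ptcd3 was called higher at 0.57 (edgeR adjusted p = 2.487e-04), and all 6 genes were called higher (background 34.4%).

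Without offsets, the factors that build and serve these ribosomes moved less uniformly. Of 65 other genes of mitochondrial translation, these 6 subunits included, 43 were higher (background 35.6%), 6 lower (background 36.5%) and 16 not called, with a median log2 fold change of 0.59. With transcript length and GC offsets 29 were called higher (background 30.7%) and 5 lower (background 26.8%), at a median of 0.27. With coding length offsets 51 were called higher (background 34.4%) and 4 lower (background 29.1%), at a median of 0.59. The difference between them and the mitochondrial ribosomal protein genes was not tested, and their transcripts are longer, with a median of 2288 bases. Among 23 assembly factors, 17 were higher (background 35.6%) and 1 lower (background 36.5%), with a median of 0.79. With transcript length and GC offsets 9 were higher (background 30.7%) and 2 lower (background 26.8%), at a median of 0.29. With coding length offsets 19 were higher (background 34.4%) and 1 lower (background 29.1%), at a median of 0.57. Malsu1, which keeps the unfinished large subunit from joining the small one, had a log2 fold change of 2.05, and the ribosomal RNA methyltransferase Mrm3, listed as Rnmtl1, one of 1.30. With transcript length and GC offsets they stood at 1.97 and 0.56, both called. The RNA helicase Dhx30 was the one called lower, at -0.54 (standard error 0.11, edgeR adjusted p = 2.285e-04). Its direction turned with offsets, since it was called higher at 0.29 with those for transcript length and GC content (edgeR adjusted p = 0.00492) and at 0.54 with those for coding length.

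Among 16 translation and messenger RNA factors, 11 were higher (background 35.6%) and 2 lower (background 36.5%), with a median of 0.77. With transcript length and GC offsets 7 were higher (background 30.7%) and 3 lower (background 26.8%), at a median of 0.16. With coding length offsets 13 were higher (background 34.4%) and 1 lower (background 29.1%), at a median of 0.59. Slirp and Lrpprc, which form one complex that stabilises mitochondrial messenger RNA, went in opposite directions without offsets. With coding length offsets both were called higher, Slirp at 1.16 and Lrpprc at 0.71. Slirp averaged 61.7 ± 1.91 CPM in cKO and 11.1 ± 0.818 CPM in cWT libraries, a log2 fold change of 2.47 (standard error 0.11, edgeR adjusted p = 6.164e-12). Lrpprc averaged 38.0 ± 3.21 CPM in cKO and 54.7 ± 2.57 CPM in cWT libraries, a log2 fold change of -0.53 (standard error 0.10, edgeR adjusted p = 1.856e-04), which was 0.05 with transcript length and GC offsets, where Slirp stood at 2.30. Gfm2, which recycles the ribosome after termination, averaged 28.1 ± 1.56 CPM in cKO and 67.0 ± 5.22 CPM in cWT libraries, a log2 fold change of -1.25 (standard error 0.11, edgeR adjusted p = 5.878e-09), and stood at -1.07 with those offsets. The ribosome rescue factor Mtres1, listed as 1700021F05Rik, had a log2 fold change of 1.46, which was -0.096 with those offsets (edgeR adjusted p = 0.631) and 0.81 with coding length offsets.

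Of 20 genes for charging mitochondrial tRNAs, 10 were higher (background 35.6%) and 3 lower (background 36.5%), with a median of 0.31, so the share called higher was above that of all genes and the share called lower below it. With transcript length and GC offsets 8 were called higher (background 30.7%) and 0 lower (background 26.8%), at a median of 0.23. With coding length offsets 13 were called higher (background 34.4%) and 2 lower (background 29.1%), at a median of 0.62. The 2 largest called increases were those of Fars2 (1.23) and Yars2 (0.96), the phenylalanine and tyrosine synthetases, and the 2 largest called decreases those of Vars2 (-0.90) and Lars2 (-0.30), the valine and leucine synthetases. With transcript length and GC offsets Fars2 stood at 1.07 and was called, whereas Yars2 at 0.25, Vars2 at 0.04 and Lars2 at 0.21 were not. The call of Lars2 was also lost with the size factors of DESeq2 (edgeR adjusted p = 0.0555), its Wald test (DESeq2 adjusted p = 0.0682) and the filter of 5 CPM in 3 libraries (edgeR adjusted p = 0.0573). With coding length offsets Lars2 was called higher at 0.47 (edgeR adjusted p = 0.00206), and Vars2 at 0.056 was not called. Of 10 genes for mitochondrial transcription and DNA maintenance, 6 were higher (background 35.6%) and 2 lower (background 36.5%), with a median of 0.70. The elongation factor Tefm (1.46) and the single-strand binding protein Ssbp1 (1.28) rose, and the RNA polymerase Polrmt (-0.47) and the DNA polymerase Polg (-0.31) fell. In the fit with transcript length and GC offsets 6 were higher (background 30.7%) and 1 lower (background 26.8%). There Tefm stood at 0.30, Polrmt at 0.31 and Polg at 1.13, all called higher, and Ssbp1 at 0.0095 was not called (edgeR adjusted p = 0.938). With coding length offsets Tefm stood at 1.23 and Ssbp1 at 0.19, the second not called. Genes encoded in mitochondrial DNA were not analysed here.

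Promoter sequences were available for 68 of the 77 genes in RefSeq (GRCm38.p6), each running from 250 bases before to 50 bases after the annotated start. They were searched on both strands for exact matches to motifs of factors known for nuclear genes of mitochondria. The ETS motif CCGGAAG, bound by factors such as the GA-binding protein, was found for 25 of the 68 genes (36.8%), beside 19.1% of 10266 tested genes. The YY1 motif AAGATGGCG was in 8 (11.8%), beside 3.43%, and the NRF1 motif GCGCATGCGC in 3 (4.41%), beside 2.29%. The Sp motif GGGCGG was in 34 of 68, beside 67.4%, and the E-box CACGTG in 5 (7.35%), beside 11.4%. A match is a description of the letters and not a site shown to be bound.

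Promoters of 4 genes are given 5′ to 3′ on the gene's strand, with matches to the ETS, YY1 or NRF1 motif in capitals and any to the Sp motif or the E-box left in lower case. Mrps18c (chr5:100798509-100798808, plus strand) and Mrpl51 (chr6:125191950-125192249, plus strand) hold an ETS match and lie head to head with a gene called lower. The pairs rest on GENCODE gene starts and the windows on RefSeq starts, which can differ. The Mrpl51 window lies downstream of both starts of its pair, 125191801 for Mrpl51 and 125191701 for Ncapd2. Mrps11 (chr7:78782881-78783180, plus strand) holds a YY1 match and lies head to head with Mrpl46. Mrps2 (chr2:28467816-28468115, plus strand) is the gene that was not called, and none of these 3 motifs is in its window. The windows of Mrpl14, Mrpl20 and Mrpl41, with the 3 largest increases, also held none of them, while those of Mrpl52 and Mrps24 did. A relation between motifs and fold changes was not tested.
Mrps18c: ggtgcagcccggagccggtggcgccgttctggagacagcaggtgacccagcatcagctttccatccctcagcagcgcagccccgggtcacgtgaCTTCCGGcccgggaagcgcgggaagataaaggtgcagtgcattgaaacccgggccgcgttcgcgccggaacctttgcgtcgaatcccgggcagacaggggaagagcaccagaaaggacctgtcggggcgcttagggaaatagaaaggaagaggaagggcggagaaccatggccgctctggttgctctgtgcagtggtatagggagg
Mrpl51: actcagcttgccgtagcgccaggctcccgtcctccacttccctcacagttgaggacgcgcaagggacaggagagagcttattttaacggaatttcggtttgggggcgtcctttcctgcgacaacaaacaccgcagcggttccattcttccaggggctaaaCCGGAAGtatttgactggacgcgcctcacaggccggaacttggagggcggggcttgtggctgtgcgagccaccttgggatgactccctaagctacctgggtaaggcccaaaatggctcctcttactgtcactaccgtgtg
Mrps11: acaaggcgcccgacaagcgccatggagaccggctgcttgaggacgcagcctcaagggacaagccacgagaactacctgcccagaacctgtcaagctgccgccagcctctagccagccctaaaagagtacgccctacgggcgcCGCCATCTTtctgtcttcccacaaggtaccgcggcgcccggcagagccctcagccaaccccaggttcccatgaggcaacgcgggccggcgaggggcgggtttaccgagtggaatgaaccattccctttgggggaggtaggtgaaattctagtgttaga
Mrps2: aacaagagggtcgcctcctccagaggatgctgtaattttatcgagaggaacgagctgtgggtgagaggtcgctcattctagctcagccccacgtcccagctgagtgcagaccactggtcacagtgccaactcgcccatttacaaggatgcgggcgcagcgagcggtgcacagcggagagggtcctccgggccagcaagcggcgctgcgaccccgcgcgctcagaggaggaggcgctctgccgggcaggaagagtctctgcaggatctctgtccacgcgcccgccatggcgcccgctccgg

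Many of the genes lie head to head with another gene, their starts within 1000 bases on opposite strands, so that both are read outward from shared sequence. By GENCODE gene starts, such a neighbour was annotated for 33 of the 77. Mrpl46 and Mrps11 are each other's neighbour, and both rose, with log2 fold changes of 1.69 and 1.50. Of the 31 neighbours outside the group, 27 were tested, with 8 higher (background 35.6%), 9 lower (background 36.5%) and 10 not called, shares near those of all genes. The median log2 fold change in these pairs was 1.57 for the mitochondrial ribosomal protein gene and 0.01 for the neighbour, and the first was above the second in 23 of 27 pairs. Median transcript lengths were 1280 bases for the mitochondrial ribosomal protein genes and 2965 bases for the neighbours. Neighbours called lower had transcripts of 3144 to 5569 bases, and neighbours called higher had transcripts of 568 to 2911 bases. With transcript length and GC offsets the medians were 0.57 for the mitochondrial ribosomal protein genes and 0.02 for the neighbours. In 17 pairs the annotated genes do not overlap at their starts, and there the medians without offsets were 1.57 for the mitochondrial ribosomal protein genes and 0.14 for the neighbours.

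Single pairs, picked after their values were seen, differed. Mrpl51 rose by 1.78 on the log2 scale, and its neighbour Ncapd2, a condensin subunit whose start lies 100 bases away, stood at -1.50 (edgeR Benjamini-Hochberg adjusted p = 1.004e-06). Mrps18b rose by 1.30, and Ppp1r10, a regulatory subunit of protein phosphatase 1 with its start 45 bases away, stood at -1.21 (edgeR adjusted p = 2.942e-08). Mrps18c rose by 2.03, and the DNA helicase gene Helq, 29 bases away, stood at -0.66 (edgeR adjusted p = 0.0201). In contrast, Mrpl49 rose by 0.92 beside Fau, which encodes a cytosolic ribosomal protein, at 2.28, and Mrpl36 rose by 1.56 beside the complex I gene Ndufs6 at 2.22. Mrpl32 rose by 1.60 and its neighbour, the proteasome gene Psma2, by 1.76. The offsets for transcript length and GC put the neighbours at -0.67 for Ncapd2, -0.50 for Ppp1r10, -0.27 for Helq, 0.88 for Fau, 0.58 for Ndufs6 and 1.59 for Psma2. Their partners stood at 1.96 for Mrpl51, 0.09 for Mrps18b, 0.22 for Mrps18c, 0.27 for Mrpl49, 0.15 for Mrpl36 and 1.56 for Mrpl32. The gap between Mrps18b and Ppp1r10, for example, was then smaller than without offsets.

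**Figure D5:**
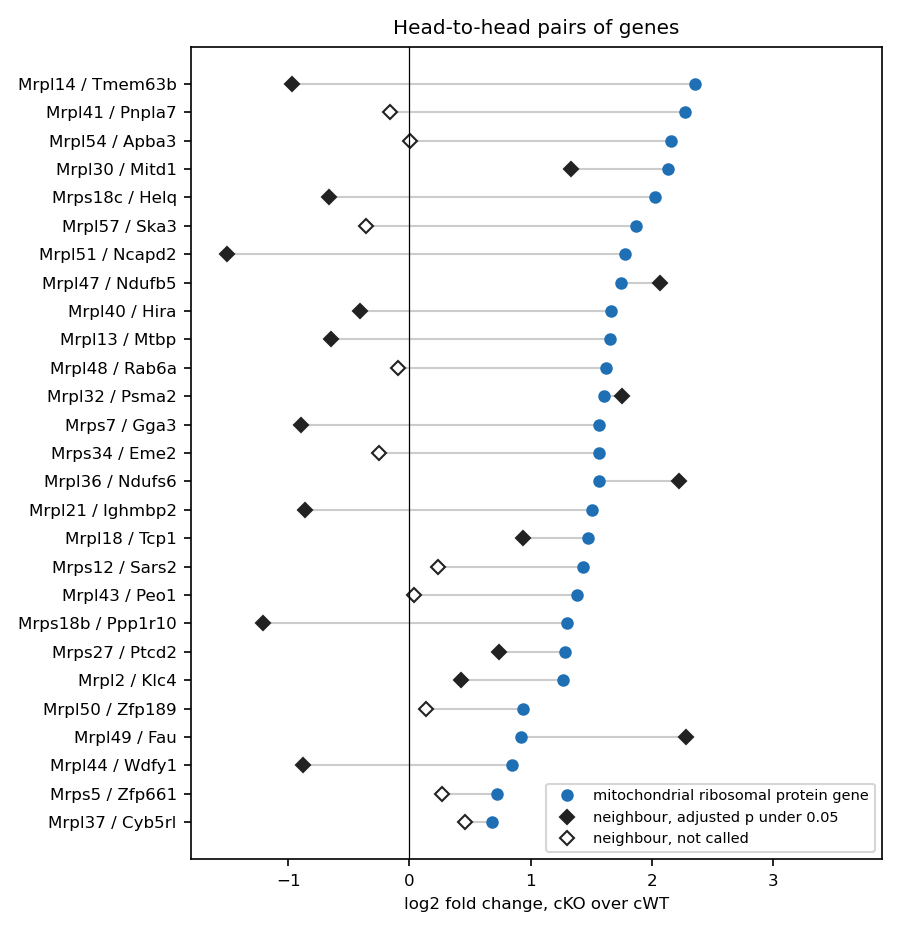
Log2 fold change, cKO over cWT, of 27 mitochondrial ribosomal protein genes (blue circles) and of the gene lying head to head with each (diamonds, filled where the edgeR adjusted p is under 0.05). The circles all lie above 0, whereas the diamonds spread from -1.50 for Ncapd2 to 2.28 for Fau.

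The plot of head-to-head pairs rests on counts whose use of strand was not stated in the labels or files. A gene on the opposite strand overlaps 35 of the 77 genes in the annotation, so some reads of a pair could be assigned to either. Mrpl14, for example, overlaps its neighbour Tmem63b (log2 fold change -0.97). Further, 5 annotated pseudogenes are named for 3 of the 77 genes, and reads shared with such copies could be split between them.

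The guide strand of the deleted microRNA, miR-137-3p, comes from chr3:118433901-118433923 (plus strand, GRCm38.p6). Its sequence from RefSeq is given with the seed, bases 2 to 8, in capitals, since a messenger RNA is typically recognised by pairing with the seed.
miR-137-3p: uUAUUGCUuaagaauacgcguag

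The match to this seed, AGCAATA, was searched in the annotated 3' UTR of each gene on the transcript strand. It was present in 4 of the 77 genes (5.19%), beside 8.65% of 12863 tested genes. The median 3' UTR length was 320 bases for the 77 and 934 bases for the tested genes. The 4 genes were Mrpl48 (log2 fold change 1.62), Mrpl18 (1.47), Mrpl15 (1.45, with 2 matches) and Mrpl49 (0.92), at ranks 30, 45, 46 and 68 of the 77. The matches are given in capitals with 11 bases on either side, since they are all those found in the group.
Mrpl48: gatagaaattcAGCAATAagcagttctaa
Mrpl18: gaaagcttcagAGCAATAatgtgactgaa
Mrpl49: tggatgagacaAGCAATAtcttaggttct
Mrpl15, upstream site: tgtcagtctgcAGCAATAggaggagagac
Mrpl15, downstream site: ctaccttaaaaAGCAATAagtcttgagtg

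In the authors' deposited table, 76 of the 77 genes were higher at an adjusted p under 0.05 (background 29.4%) and 0 lower. The log2 fold changes in the authors' deposited table differed from those given here by at most 0.010.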

How the data were processed

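RNA sequencing of 3 cKO and 3 cWT libraries was analysed, with groups taken from the sample titles. The authors deposited estimated counts per gene symbol, not scaled between libraries, of which 5.5% to 5.85% per library were not whole and which were rounded before testing. The submitters' processing notes list STAR 2.7.9a, RSEM, DESeq2, GRCm38 and mm10 without saying what each was used for. The annotation and the use of strand were not given in the sources used here. The authors' deposited comparison table holds, per the file headers, a base mean (a scaled signal), log2 fold changes and their standard errors, a Wald statistic (a score) and p-values with adjusted p-values.

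Genes were tested in R 4.3.3 with the two-sided quasi-likelihood test of edgeR 4.0.16 (TMM scaling, robust dispersion, genotype as the only term). The filterByExpr filter at a minimum count of 10 set aside 3969 genes, and Benjamini-Hochberg adjustment ran over the 13490 that were left. Standard errors were derived from the test statistic. Precision was limited by depth for the lowest genes: the smallest count of any of the 77 in any library was 101. Replicates differed by more than counting noise (chi-square per degree of freedom 3.76 to 18.2), so none was treated as a duplicate. Offsets were smooth trends of log2 counts on log length (and GC content) fitted per library with mgcv 1.9.3. Lengths came from GENCODE annotation of GRCm38, found for 99.3% of tested genes, with 1 transcript per gene chosen by annotation rank. Promoters and miR-137 came from RefSeq. Fits were checked on simulated counts.

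The genes and the lists were chosen with earlier results of these data known. The genes named are those not called or called lower, the 6 largest and 6 smallest fold changes, the 6 highest by CPM and by level per kb of transcript, those called in the other direction with offsets, Mrps36, the S18 paralogs, Mrpl12 and Mrps12. In the other lists they are the 2 largest called changes each way. Mrpl3, Mrpl43 and the genes of the head-to-head pairs, the promoters and the miR-137 matches were picked after their values were seen. Alternatives were DESeq2 1.42.0, other scalings and filters, offsets, a replicate block and leaving out each library.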

Additional observations from a re-analysis of the deposited data

How the results depend on the processing

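The 76 increases were called again with the size factors of DESeq2, its Wald test, no filter on low counts, a filter of 5 CPM in 3 libraries, and each library left out in turn. Leaving out 1 library gave medians of 1.50 to 1.60 for the 77 genes and 0 called lower. Under scaling by library size alone the median over all genes moved to -0.42 and the calls to 3331 higher and 6742 lower of 13490. It left 74 of the 77 higher and 1 lower (Mrps2), at a median of 1.13. Of the 65 other mitochondrial translation genes, 31 were then higher and 16 lower. TMM on genes of like transcript length used those of 606 to 4324 bases, the range of the 77 from percentile 5 to 95. It moved the median of all genes to -0.30, with 3737 higher and 6232 lower. It left 75 of the 77 higher, 0 lower, a median of 1.25, and 11 of the 65 other genes lower. In the main fit the all-gene median still fell within that range, from 1.01 at 1156 to 1605 bases to -0.37 at 3334 to 3949 bases. This scaling applied 1 factor per library and left that trend in place. Offsets for transcript length alone gave 51 of the 77 higher, 0 lower and a median of 0.47, beside 0.04 for all genes. Of the 65 other genes, 27 were higher and 3 lower. The shares of all genes called with these offsets are not given here. Transcript length and GC offsets gave 2 lower and a median of 0.49, and coding length offsets, chosen after seeing the data, 2 lower and 0.72.

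The log2 fold change of Mrps2, near 0, turned to -0.39 with library size alone, -0.031 with no filter, -0.27 with TMM on like lengths, -0.33 with length offsets, -0.39 with length and GC offsets, -0.45 with coding offsets, and between -0.089 and 0.20 on leaving out 1 library. With length offsets and with length and GC offsets, the values were -0.054 and -0.095 for Mrps21, -0.27 and -0.41 for Mrps36, -0.018 and -0.038 for Mrpl44, -0.12 and -0.048 for Mrpl37, and -0.20 and -0.20 for Mrpl10, and Mrps12 stood at -0.16 with length offsets alone. With coding offsets Mrps36 stood at -0.042, Mrpl10 at -0.14 and Mrps25 at -0.28. These are not all the genes below 0. Of the 77, 67 were above 0 with length offsets, 68 with length and GC offsets and 71 with coding offsets. The cause was not tested beyond these settings.

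Replicate numbers are shared by the genotypes, but the deviations of same-numbered libraries correlated at 0.071, 0.022 and 0.069, under the 0.1 taken as pairing, although each library correlated best with its own number. A replicate block gave 4883 genes higher and 5028 lower, with 76 of the 77 higher, 0 lower, and Mrps2 at -0.0062.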
